A study of Mus musculus with 81 samples.

Results

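Open chromatin was mapped in naive mouse embryonic stem (ES) cells at 0h, before conversion to epiblast-like cells (EpiLC), as a nascent, a mature and a bulk peak list. The members are all peaks of the lists deposited for those 3 groups: 19314 nascent, 66518 mature and 154235 bulk peaks, 240067 of the 3070128 peaks in all lists of the series. The cells were 129/Ola ES cells of genotype WT at passages 35 to 45. They were grown on gelatin in N2B27 with LIF, 3 µM of the Gsk3 inhibitor Chir99021 and 1 µM of the MEK inhibitor PD0325901. In the 24 h before induction, 250 nM of the FGF receptor inhibitor PD173074 took the place of the MEK inhibitor. All 3 groups share these conditions, and 9 of the 81 samples, 3 per group, belong to them. Each group has 1 deposited list, so there is no spread between replicates and no test. Wilson 95% intervals given with shares cover counting error only. Lists of cells at 9h and of EpiLC at 48h, induced on fibronectin with FGF2 and Activin A, serve as comparisons. So do lists of mouse embryonic fibroblasts (MEF) at 6h and 12h of reprogramming with doxycycline, which were heterozygous for Col1a1::tetOP-OKSM, R26-M2rtTA and Oct4GFP, so that the induced OKSM factors include factors that ES cells express themselves.

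A replication fork displaces nucleosomes and most bound factors, and both daughter strands are repackaged behind it. Transcription factors must then find their sites again among newly placed nucleosomes, so accessibility can differ between a locus just copied and the same locus at other times. repli-ATAC-seq reads this by labelling new DNA with the nucleotide analogue EdU and capturing it after transposase has cut open chromatin. Here cells took up 20 µM EdU for 10 min. The nascent fraction was collected at once, the mature fraction 2 h after labelling with a chase in 10 µM thymidine, and the bulk fraction is the DNA that the capture left unbound. Naive ES cells depend on factors such as Pou5f1, Sox2, Nanog, Esrrb and Klf4, which hold enhancers open, while most housekeeping promoters lie in CpG islands, stretches rich in CpG dinucleotides that stay unmethylated.

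Peaks were placed on the build mm10, and each carries the score of the authors' peak caller, which ranks peaks within a list. Gene ends came from a RefSeq table (GRCm38.p6, with the same coordinates as mm10). A gene end is either end of a protein-coding gene model, and a peak within 1 kb of it is called a gene-end peak. Promoter windows are the 300 bases from 250 before to 50 after an annotated start, with sequences from the same RefSeq build (21263 windows of 17492 protein-coding genes). Reads per peak are not given in the lists, so the depth is unknown, and a site open in fewer cells cannot be told apart from a site less open in each cell.

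The promoter sequences that carry the main contrast are shown first. Zfp691, Flrt3 and Alkbh6 had the highest bulk scores among promoters in the RefSeq windows whose bulk peak held no nascent peak. Each is set below the promoter closest to it in bulk score that did hold a nascent peak. The 200 bases before the annotated start are printed 5′ to 3′ with every CpG in capitals, on GRCm38.p6. The pairs were chosen after the scores were seen and illustrate the classes.
Tiprl (chr1:165236959-165237158, minus strand): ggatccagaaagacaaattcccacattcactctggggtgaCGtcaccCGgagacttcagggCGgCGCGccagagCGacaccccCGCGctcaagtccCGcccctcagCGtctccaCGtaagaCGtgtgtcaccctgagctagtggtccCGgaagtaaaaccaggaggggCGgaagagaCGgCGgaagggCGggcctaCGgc
Zfp691 (chr4:119173857-119174056, minus strand): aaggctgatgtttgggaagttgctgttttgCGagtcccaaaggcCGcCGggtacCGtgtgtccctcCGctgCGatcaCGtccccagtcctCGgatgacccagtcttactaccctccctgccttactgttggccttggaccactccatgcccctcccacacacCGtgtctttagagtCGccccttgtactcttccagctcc
Gdpgp1 (chr7:80232693-80232892, plus strand): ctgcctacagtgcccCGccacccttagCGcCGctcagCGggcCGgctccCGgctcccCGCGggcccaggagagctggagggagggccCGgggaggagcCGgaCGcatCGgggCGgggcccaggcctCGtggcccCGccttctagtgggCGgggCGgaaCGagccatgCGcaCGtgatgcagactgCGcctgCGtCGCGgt
Flrt3 (chr2:140671477-140671676, minus strand): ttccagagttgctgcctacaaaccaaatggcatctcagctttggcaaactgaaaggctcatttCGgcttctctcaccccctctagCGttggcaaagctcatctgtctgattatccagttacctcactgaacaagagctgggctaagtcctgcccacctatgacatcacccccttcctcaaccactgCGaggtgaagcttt
Washc2 (chr6:116207833-116208032, plus strand): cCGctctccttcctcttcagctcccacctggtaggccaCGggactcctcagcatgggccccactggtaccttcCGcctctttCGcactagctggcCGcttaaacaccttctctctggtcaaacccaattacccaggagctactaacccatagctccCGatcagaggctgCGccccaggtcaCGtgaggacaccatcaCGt
Alkbh6 (chr7:30308553-30308752, plus strand): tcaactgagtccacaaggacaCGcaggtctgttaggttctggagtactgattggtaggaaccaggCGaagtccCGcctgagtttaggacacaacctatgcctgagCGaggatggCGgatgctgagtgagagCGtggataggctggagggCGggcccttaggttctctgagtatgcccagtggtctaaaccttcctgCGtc

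Tiprl had a nascent peak of score 396 under a bulk score of 7030, and Zfp691 had none under a bulk score of 7031. Their 300-base windows held 29 CpGs in Tiprl and 16 in Zfp691. Gdpgp1 had a nascent score of 364 and 33 CpGs, against no nascent peak and 8 CpGs in Flrt3, at the same bulk score of 6853. Flrt3 encodes a transmembrane protein with leucine-rich repeats, and its promoter is the poorest in CpG of the 6. The pair at a bulk score of 6718 ran the other way, with 15 CpGs in Washc2, which had a nascent score of 322, and 17 in Alkbh6, which had no nascent peak. All 6 promoters had a mature peak, with scores of 817 to 1382.

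Few sites open in bulk chromatin were listed in nascent chromatin. Of the 154235 bulk peaks, 18797 (12.2%, interval 12.0 to 12.4) shared at least 1 bp with a nascent peak and 65341 (42.4%, 42.1 to 42.6) with a mature peak. Both shares are the background for the counts that follow. The nascent set lay almost wholly inside the mature set, since 98.1% of bulk peaks with a nascent peak also had a mature peak. A further 46910 bulk peaks had a mature and no nascent peak, 366 had a nascent and no mature peak, and 88528 (57.4%) had neither. Of the bulk peaks without a nascent peak, 34.6% had a mature peak.

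The mature list is longer than the nascent list. With the mature list cut by score to the 19314 peaks of the nascent list, 12.7% of bulk peaks had a mature peak. At equal length the 2 lists shared most but not all sites. Of the bulk peaks with a nascent peak, 71.1% were hit by the shortened mature list. Of the bulk peaks hit by that list, 68.3% had a nascent peak. For scale, 70.2% of the bulk peaks with a nascent peak also had one in the nascent list of cells at 9h. Whether the fractions differ more than repeat lists of the same fraction would was not tested. The equal-length mature list is set beside the nascent list below only where it is named. Other mature values, those of gene lists and other cell states among them, come from full lists and are not matched for length.

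Sites with a nascent peak were strong and wide in bulk. Their median bulk score was 3185 (quartiles 2028 and 4645), against 1002 for sites with a mature and no nascent peak and 215 for sites in the bulk list alone. Their median bulk width was 1004 bp, against 600 bp and 317 bp in those 2 classes. By decile of bulk score, the share with a nascent peak was 0.305% in the weakest decile, 2.00% in the sixth, 10.3% in the eighth, 29.0% in the ninth and 73.5% in the strongest. The share with a mature peak climbed earlier, with 3.24%, 39.2%, 74.8%, 91.9% and 99.5% in the same deciles. The 366 sites with a nascent and no mature peak were weak, with a median bulk score of 342.

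**Figure D1:**
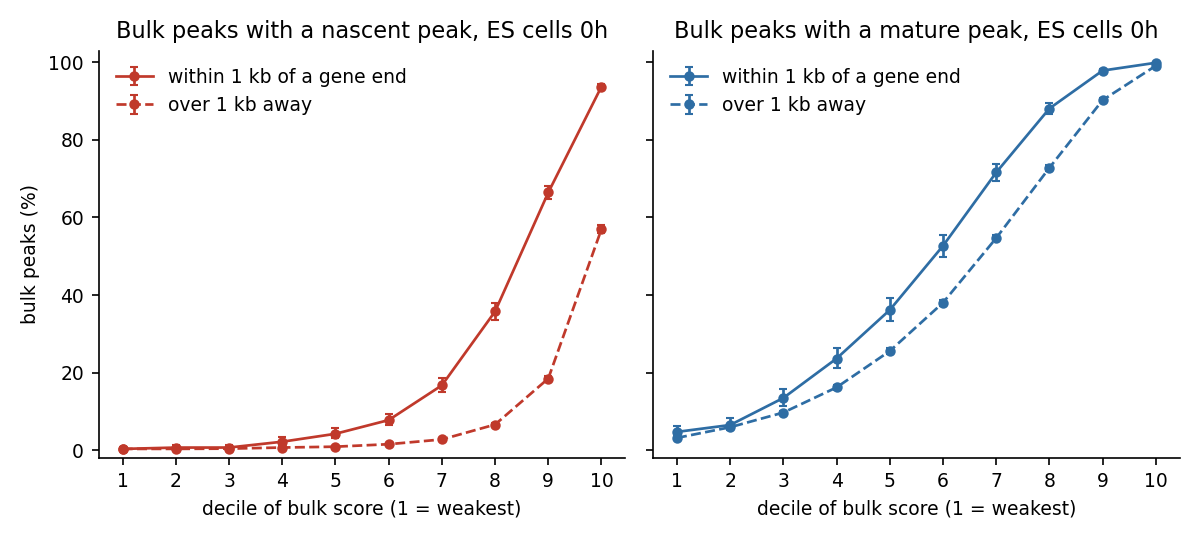
Share of ES cell 0h bulk peaks that overlap a nascent peak (left) or a mature peak (right), in percent, by decile of bulk score. Solid lines are peaks within 1 kb of a gene end, dashed lines all others, and bars are Wilson 95% intervals; in the strongest decile 93.8% of gene-end peaks and 57.0% of the others held a nascent peak.

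Within quintiles of bulk score, the widest sites held a nascent peak more often than the narrowest. Score still varies inside a quintile: deciles 9 and 10, which form the strongest one, had nascent shares of 29.0% and 73.5%. Among bulk peaks of the strongest score quintile, 84.7% (83.7 to 85.5) of the widest quintile had a nascent peak, against 11.2% (10.4 to 12.0) of the narrowest. For the mature list the same quintiles gave 99.9% and 82.3%, and for the mature list at equal length 76.9% and 31.1%. Averaged over the 5 score quintiles, the widest and narrowest quintiles stood at 22.5% and 2.52% for nascent peaks, a difference of 20.0 points. The equal-length mature list gave 16.9% and 6.64%, a difference of 10.3 points. Cut by its own score, it hit at most 0.519% of any width quintile in score quintile 3, so its average rests mostly on stronger sites. In the strongest score quintile, the narrowest sites were listed less often in nascent chromatin at equal list length (11.2% against 31.1%). This describes these lists, with no test of the difference.

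**Figure D2:**
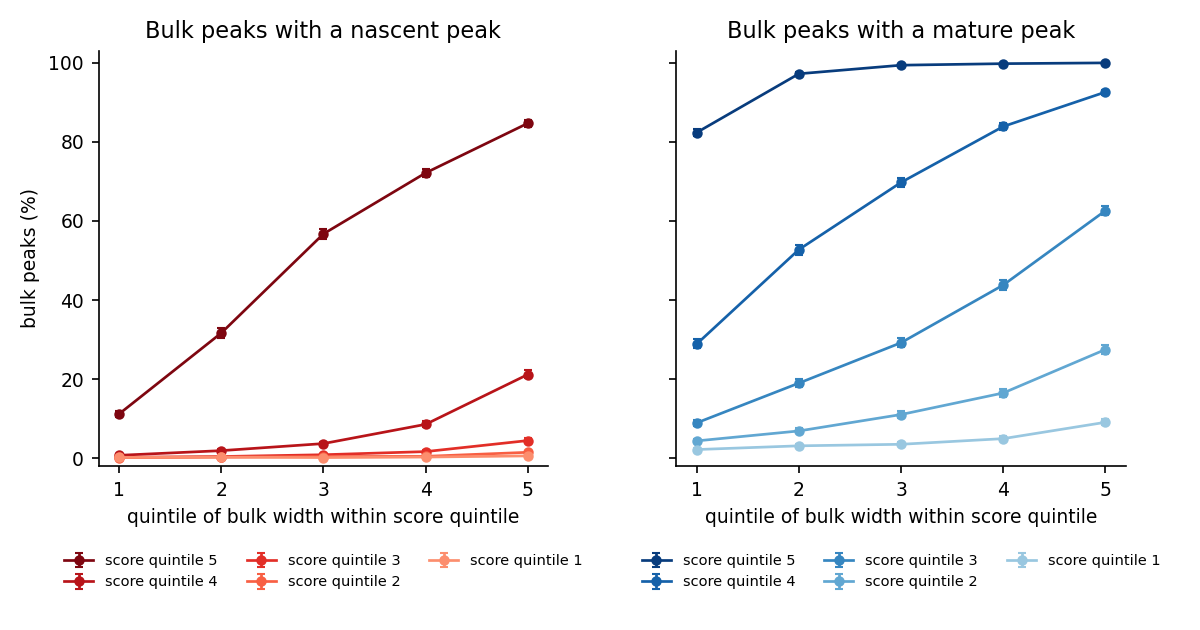
Share of bulk peaks with a nascent peak (left) or a mature peak (right), in percent, by quintile of bulk width made within each quintile of bulk score. Points carry Wilson 95% intervals; in the strongest score quintile the nascent share was 84.7% in the widest and 11.2% in the narrowest quintile.

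Where the lists met, the ratio of peak width to bulk width was smaller for nascent peaks, over unlike sets of sites. The median ratio of width to that of the bulk peak was 0.52 for nascent peaks (quartiles 0.39 and 0.66) and 0.79 for mature peaks (0.62 and 0.92). Centres of nascent peaks lay a median of 73.5 bp from the centre of the bulk peak, and those of mature peaks 46.0 bp. Bulk peaks with a nascent peak had a median width of 1004 bp, against 600 bp for those with a mature and no nascent peak. Median widths of the nascent and mature lists were alike, at 474 and 503 bp. Ratios and centres were not compared over the same sites. Only 259 bulk peaks held more than 1 nascent peak. Bulk and nascent scores ranked sites alike in part, with a Spearman rho of 0.69 over 18777 sites, and bulk and mature scores had a rho of 0.84 over 65316 sites. Those values describe sites that share their DNA and the peak caller.

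Nascent peaks were concentrated at gene ends. Gene-end peaks made up 50.6% of the nascent list, 21.6% of the mature list and 12.9% of the bulk list. The mature and bulk lists cut to the nascent length held 41.3% each. Of the 19886 gene-end bulk peaks, 49.7% (49.0 to 50.4) had a nascent peak, against 8.26% at 1 to 10 kb, 6.45% at 10 to 50 kb and 5.26% beyond 50 kb. Mature peaks were found at 73.2%, 40.7%, 37.5% and 35.3% of the sites in those bins. With the mature list at equal length these were 40.7%, 9.79%, 7.84% and 8.29%.

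Gene-end sites were also stronger in bulk, with a median score of 1674, against 363 to 428 in the other bins. Weighted to the same mix of score deciles, the share with a nascent peak was 22.8% at gene ends and 8.88% elsewhere, a difference of 14.0 points. The mature list at equal length gave 14.8% and 11.9%, a difference of 2.99 points. Cut by its own score, that list reached few sites of low bulk score. It hit at most 0.519% of any width quintile in score quintile 3, and at most 6.79% in score quintile 4. In decile 8 the nascent list hit 35.8% of gene-end sites and 6.58% of the others. The weighted difference of the shortened list is thus held small, and its size cannot be compared directly with the nascent difference. Gene-end sites were wider too, with a median of 845 bp. Weighted to width alone, the differences were 13.8 points for the nascent list and 9.06 points for the equal-length mature list. Weighted to score and width together, the nascent difference was 8.32 points and that of the equal-length mature list 1.82 points. Sites inside gene models but over 1 kb from their ends (8.19% weighted to score) and sites between genes (8.56%) had like nascent shares.

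Bulk peaks at annotated starts held nascent peaks most often. Those touching a promoter window numbered 11488, some of them over 1 kb from the ends of the gene models used, and 71.2% of them had a nascent peak, against 26.0% of the 10043 gene-end peaks that touched none. Weighted to score these shares were 27.5% and 18.3%, and weighted to score and width 20.6% and 15.9%. Median widths were 1024 bp and 566 bp. The equal-length mature list gave 15.1% and 14.0% weighted to score, with the same limit at low bulk scores. The windows do not cover every gene, so some peaks in the second class lie at starts too.

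Among promoters, CpG content separated those with and without a nascent peak at the same bulk score. Of the 13823 promoter windows with a bulk peak, 69.1% overlapped a nascent peak and 87.6% a mature peak, which is the background here. In the second quintile of bulk score (1163 to 2335), a nascent peak was found at 15.0% of windows with 0 to 4 CpGs, 25.3% with 5 to 9, 43.1% with 10 to 14, 56.6% with 15 to 19, 70.6% with 20 to 24 and 82.2% (79.7 to 84.5) with 25 or more. The mature shares in the same bins were 77.1%, 85.5%, 93.0%, 95.6%, 98.3% and 97.2%. The equal-length mature list gave 13.6%, 16.9%, 28.0%, 29.5%, 34.3% and 25.1%. In the weakest quintile the nascent share was 1.44% with 0 to 4 CpGs and 35.2% with 25 or more. The full mature list had 25.2% and 65.4% in those bins. The equal-length mature list had 1.44% and 0.823%. Cut by its own score, it reached few sites of this quintile at any CpG count, so it cannot show a gradient there.

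**Figure D3:**
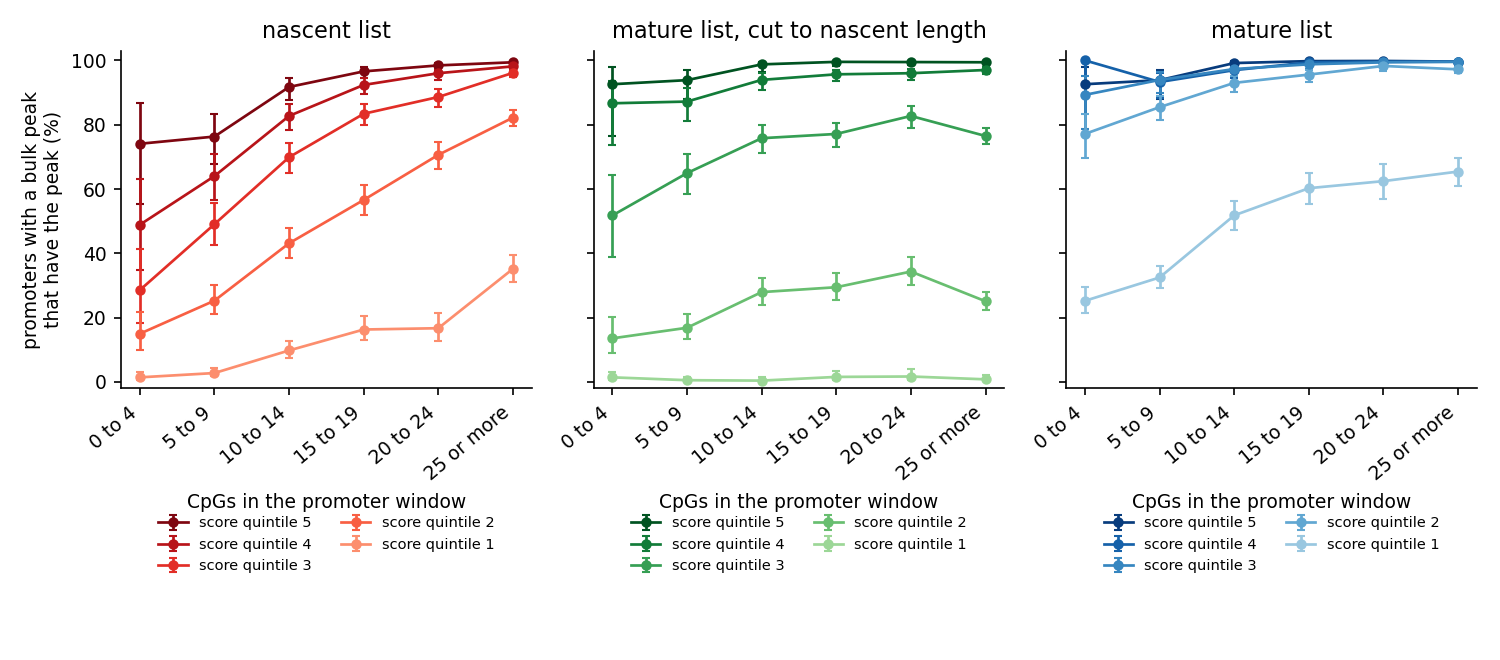
Promoter windows with a bulk peak that overlap a nascent peak (left), a peak of the mature list cut to the nascent length (middle) or a mature peak (right), in percent, by CpGs in the 300-base window. Each line is a quintile of bulk score (5 is strongest) and bars are Wilson 95% intervals; in score quintile 3 the share at 0 to 4 and at 25 or more CpGs was 28.6% and 96.1% for the nascent list and 51.8% and 76.5% for the equal-length mature list.

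Put as a single contrast weighted to score deciles, windows with 20 or more CpGs had a nascent peak in 78.5% of cases and windows with 9 or fewer in 41.7%, a difference of 36.8 points. The difference was 35.9 points when width was weighted as well. For the mature list it was 10.7 points, and for the equal-length mature list 7.77 points. The shortened list reached few windows of the weakest score quintile, so its difference is held small there. Median CpG counts were 24 to 25 in windows with a nascent peak and 10 to 13 in windows without, across the 5 score quintiles. Median GC content moved with them, at 63.3% to 66.0% with a nascent peak and 54.3% to 57.0% without. GC and CpG content moved together, and the part of each in the result was not tested.

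The same contrast appeared in the other cell states, with lists called separately in each. The nascent difference between windows of 20 or more and 9 or fewer CpGs was 36.8 points at 0h, 38.8 points at 9h, 36.2 points in EpiLC at 48h and 36.2 points in MEF at 12h. The mature differences were 10.7, 6.83, 9.38 and 11.4 points. The gene-end difference in nascent share, weighted to score, was 14.0, 14.4, 20.2 and 12.7 points in the same states, and weighted to score and width 8.32, 7.45, 9.22 and 6.77 points. In the ninth decile of each bulk list's own score, nascent shares were 29.0% at 0h, 27.4% at 9h, 40.3% in EpiLC and 23.0% in MEF at 12h. In that order the nascent lists held 19314, 18587, 27693 and 20968 peaks, and the bulk lists 154235, 154758, 152932 and 199056. The comparison of states was not matched for list length.

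Short motifs were searched on both strands of the promoter windows. GGGCGG, the core bound by SP and KLF factors, was found in 46.2% of all windows, 73.9% of those with a nascent peak, 52.0% of those with a mature and no nascent peak and 40.9% of those with a bulk peak only. The motif holds a CpG itself: with score and CpG count weighted alike, a nascent peak was found at 69.8% of windows with it and 68.5% without. CCGGAAG, the core of ETS factor sites, was in 11.6% of all windows, and in 20.6%, 9.71% and 5.55% of the 3 classes. AAGATGGCG, a match to YY1 sites, was in 1.83% of all windows and in 3.48%, 1.49% and 0.366%. Weighted to score and CpG count, a nascent peak was found at 80.1% of windows with AAGATGGCG and 68.9% without, the widest gap of the 11 motifs searched.

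TATAAA and TGAGTCA were less frequent at promoters with a nascent peak. TATAAA, the TATA box, was in 12.6% of all windows and in 4.90%, 9.25% and 8.78% of the 3 classes. TGAGTCA, bound by AP-1, was in 4.66% of all windows and in 2.40%, 4.38% and 7.01%. CCAAT, bound by NF-Y, varied less, at 38.2% of all windows and 38.8%, 37.8% and 31.6%. TATAAA showed no such gap once score and CpG count were weighted alike, with nascent shares of 69.6% with the motif and 69.1% without. Weighted in the same way, TGAGTCA gave 67.2% with and 69.2% without, and CCAAT 67.9% and 69.4%. CACGTG, the E-box, was in 10.8%, 9.14% and 8.29% of the 3 classes and 7.84% of all windows, and GCGCATGC, the NRF1 core, in 6.08%, 3.77% and 2.44% and 3.52% of all. With score and CpG count weighted, CACGTG gave nascent shares of 69.3% with and 69.1% without, GCGCATGC 72.9% and 69.1%, and CCGGAAG 72.4% and 68.5%. A match describes letters and is not evidence of binding.

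Most genes of the replication machinery and of the cell cycle had a nascent peak at a gene end. Of 21887 genes, 72.2% had a gene-end bulk peak, and of those 15809 genes 67.6% also had a gene-end nascent peak and 87.2% a mature peak. Counts by gene list, here and below, were not weighted to bulk score. Gene-end bulk peaks of score deciles 9 and 10 held a nascent peak in 66.4% and 93.8% of cases. Of the 30 replication genes with a gene-end bulk peak, most of them in those deciles, 28 (93.3%) had a nascent peak and 29 a mature peak. The list holds the MCM helicase, the origin complex, GINS, clamp loader and polymerases. Gins4, a GINS subunit, had gene-end scores of 608 nascent, 1545 mature and 8478 bulk, and Pcna, the sliding clamp, 413 nascent, 1387 mature and 5588 bulk. Prim1, a primase subunit, had no nascent peak beside a mature score of 397 and a bulk score of 2240.

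Of 14 histone chaperone genes, 12 had a nascent and 14 a mature peak. Asf1b, which hands histones to the assembly factors behind the fork, had scores of 527 nascent, 2252 mature and 9570 bulk. Chaf1a, the large subunit of that assembly factor CAF-1, had 171 nascent, 760 mature and 4991 bulk. Of 19 mitosis genes 17 had a nascent peak, of 77 mitochondrial ribosomal protein genes 67, of 78 cytoplasmic ribosomal protein genes 66, and of 22 chromatin regulators 19. Suz12, a core Polycomb subunit, had 589 nascent, 1450 mature and 6781 bulk. Ribosomal protein and histone genes have near-identical copies elsewhere in the genome, so their peaks are less certain.

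Pluripotency genes stood near or below the background at their ends. Of 16 naive pluripotency genes with a gene-end bulk peak, 9 had a nascent and 14 a mature peak, and of 16 genes of the core list 10 had a nascent and 15 a mature peak. These are 56.2% and 62.5% nascent, beside 67.6% of all genes. Klf2, a naive factor with 32 CpGs in its promoter window, had gene-end scores of 334 nascent, 816 mature and 6124 bulk. Tbx3 had 254 nascent, 1390 mature and 8562 bulk, and Sox2 had 181 nascent, 557 mature and 3316 bulk. Spp1, which encodes osteopontin, had no nascent peak beside 541 mature and 4062 bulk, and Tdh, the threonine dehydrogenase of ES cells, none beside 324 mature and 3304 bulk.

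Pou5f1 and Nanog had nascent peaks away from the annotated start and none within 1 kb of a gene end. At Pou5f1, whose window held 11 CpGs, the bulk peak of score 4601 ran from -2341 to 176 bp, counted from the start along the strand of the gene. Its nascent peak of score 157 lay at -2098 to -1648 bp, and its mature peak of score 796 at -2353 to -659 bp. At Nanog, whose window held 4 CpGs, the bulk peak at the start had a score of 1217 and a mature score of 300 but no nascent peak. The site at -5415 to -4266 bp from the start of Nanog had a bulk score of 5973, a mature score of 1824 and a nascent score of 222. Klf4, with 40 CpGs, had a nascent peak of score 160 at -585 to 183 bp, where the bulk score was 3129. Pou5f1 and Nanog have pseudogene copies, which can share reads with them.

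**Figure D4:**
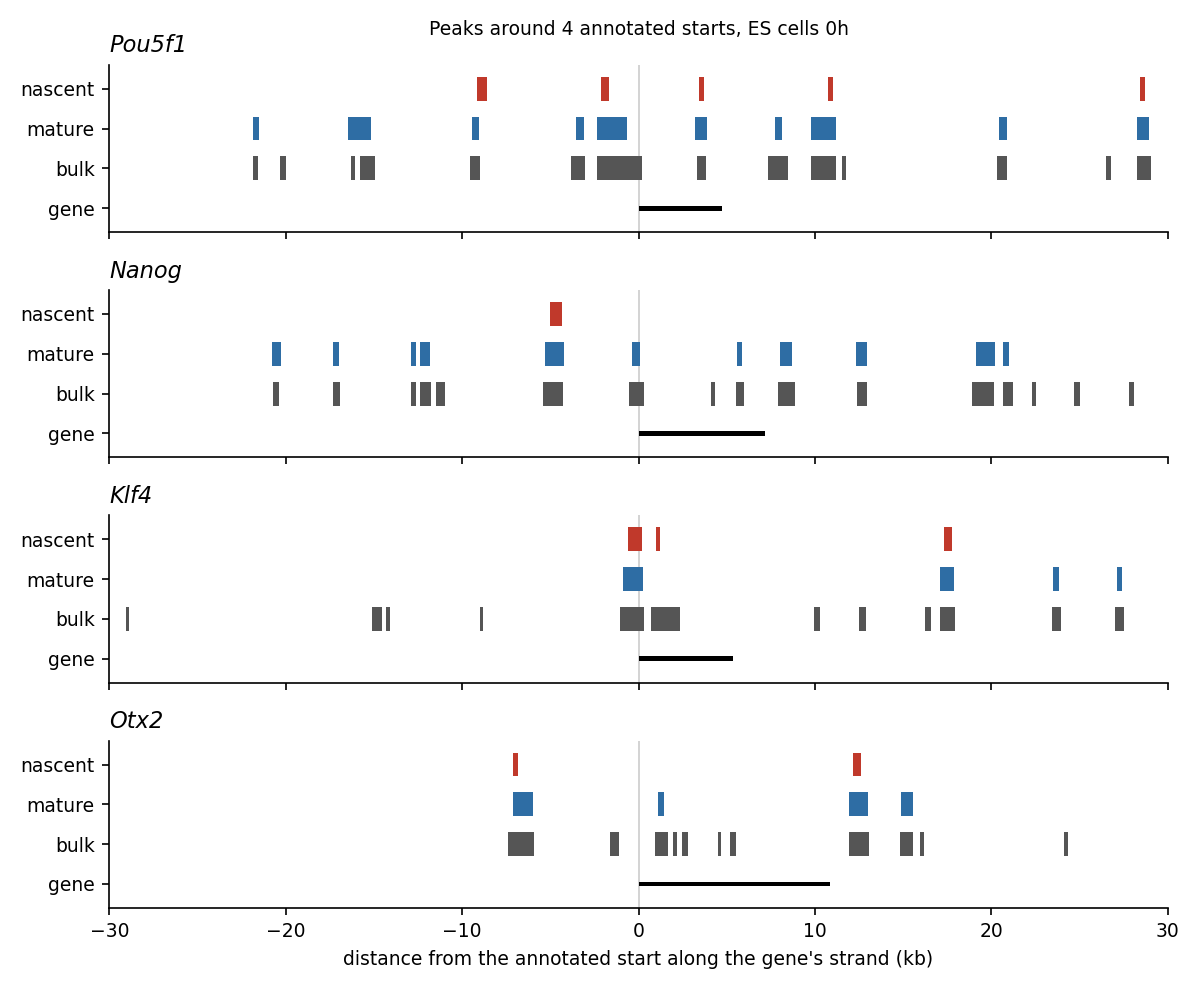
Nascent (red), mature (blue) and bulk (grey) peaks within 30 kb of the annotated start of Pou5f1, Nanog, Klf4 and Otx2 in ES cells at 0h, in kb along the strand of the gene, with the gene model in black. Klf4 has a nascent peak across its start. Those of Pou5f1, upstream of the gene, inside it and downstream, and that of Nanog, upstream, all lie over 1 kb from the start.

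Over whole loci the picture differed. Counting any peak in the gene and 10 kb on each side, 16 of 17 naive pluripotency genes and 16 of 16 core genes had a nascent peak, beside 14026 of the 18815 genes with a bulk peak there (74.5%). High counts were not particular to pluripotency genes: 32 of 32 replication genes, 18 of 19 mitosis genes and 23 of 24 chromatin regulators had one. Fibroblast genes (13 of 19) and trophoblast genes (5 of 9) stood lower. Esrrb, an orphan nuclear receptor of the naive network, had 8 nascent, 23 mature and 45 bulk peaks over its locus and no gene-end nascent peak. Tfcp2l1 had 4 nascent, 12 mature and 17 bulk peaks. Longer genes hold more peaks, and length was not matched here.

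Signalling genes of the culture medium had nascent peaks at 11 of 15 gene ends (73.3%), near the 67.6% of all genes. Stat3, which carries the LIF signal, had scores of 327 nascent, 1033 mature and 5810 bulk, and Dusp6, an ERK phosphatase, had 193 nascent, 780 mature and 3756 bulk. Lifr, the LIF receptor, had none beside 403 mature and 866 bulk. Bmp4 had neither a nascent nor a mature peak beside a bulk score of 2936. Formative genes, which the cells switch on later, had nascent peaks at 10 of 16 gene ends (62.5%), also near that share, and mature peaks at 15. Promoter windows, which do not cover every gene, gave another picture. Of genes with a bulk peak there, 3 of 10 formative and 10 of 10 signalling genes had a nascent peak, beside 72.0% of all genes. Etv5 had 210 nascent, 1038 mature and 7270 bulk, while Fgf5 had no nascent peak beside 149 mature and 450 bulk.

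Several gene families of later or specialised tissues had nascent peaks at fewer gene ends than the 67.6% of all genes, without weighting to bulk score. Of 37 Hox genes with a gene-end bulk peak, 14 had a nascent and 25 a mature peak, and of 53 clustered protocadherin genes 8 had a nascent and 37 a mature peak. Clustered protocadherins share gene ends and near-identical exons, so their counts are not independent. Of 61 olfactory receptor genes with a gene-end bulk peak 2 had a nascent peak and 19 a mature peak, and of 30 keratin genes 3 and 10. Over the gene and 10 kb on each side, where 74.5% of all genes with a bulk peak had a nascent peak, the counts were 29 of 39 Hox, 35 of 55 protocadherin, 30 of 317 olfactory receptor and 7 of 66 keratin genes, so the Hox genes stood near all genes there. Imprinted genes had 5 nascent and 9 mature peaks at 11 gene ends, and AP-1 and immediate early genes 7 and 13 at 14. Ubiquitous genes had 14 nascent and 19 mature peaks at 19. Of 60 histone genes with a gene-end bulk peak 46 had a nascent peak, of 38 proteasome genes 30, of 331 zinc finger genes named Zfp 254, and of 10 vomeronasal receptor genes 3.

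The labelled cell type was checked on the bulk list, where 72.2% of all genes had a gene-end bulk peak. A gene-end bulk peak was present at 16 of 17 naive and 16 of 16 core pluripotency genes. It was present at 13 of 20 fibroblast genes, 3 of 8 macrophage and blood genes, 2 of 7 two-cell stage genes, 8 of 9 trophoblast, 8 of 9 primitive endoderm, 12 of 13 germ layer, 7 of 8 endothelial and 9 of 11 neural and muscle genes. Of the fibroblast genes, Col3a1, Dcn, Lum, Postn and Fap had none, and of the blood genes Ptprc, Csf1r, Gata1, Lyz2 and Tyrobp had none. The fibroblast share (65.0%) was near that of all genes, and the trophoblast, endoderm, germ layer, endothelial and neural and muscle shares were above it, so gene-end bulk peaks did not separate ES cells from those types. A gene-end peak is not expression, and the part other cells may have in these lists was not tested. Nascent peaks were present at 6 of 13 fibroblast, 3 of 3 blood, 1 of 2 two-cell, 2 of 8 trophoblast, 5 of 8 primitive endoderm, 7 of 12 germ layer, 2 of 7 endothelial and 5 of 9 neural and muscle gene ends with a bulk peak, beside 67.6% of all genes.

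The strongest gene-end bulk peaks with no nascent peak lay at Fgl1 (chromosome 8, 41217755 to 41218373), Zfp691, Flrt3, Alkbh6, Atp2a2, Hsd17b11, Acvrl1, Pdk2, Pcyox1l and Chrnb1. Bulk scores of these 10 ran from 6018 to 8133, well inside the strongest decile, and each had a mature peak, with scores of 299 to 1323. Fgl1, which encodes a secreted fibrinogen-like protein, had the highest bulk score of them and a mature score of 718. Atp2a2, the calcium pump of the endoplasmic reticulum, had 681 mature and 6264 bulk. Chrnb1, a muscle acetylcholine receptor subunit, had 1198 mature and 6018 bulk. Peaks at the positions of Zfp691, Pcyox1l and Chrnb1 were in all 10 of the other lists examined, nascent lists of other states included.

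Away from gene ends, the strongest bulk peaks without a nascent peak were nearest to Rpn2 (chromosome 2, 157247824 to 157248640, bulk score 8786, mature score 1472), Npffr2 (bulk 8770, mature 1810) and Def8 (bulk 8144, mature 921). The strongest bulk peaks with neither fraction were narrow, from 221 to 514 bp. They lay nearest to Rimbp3 (bulk score 6046, width 233 bp), Cdh10 (5406, 338 bp) and Gm53057 (5213, 221 bp). The weakest gene-end bulk peaks with a nascent peak were at Mex3d (bulk score 73, nascent 52), Sfi1 (76, 200) and Brsk1 (86, 39).

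Several of the highest nascent scores lay far from genes or off the bulk list. The peak with the highest score, 6605, was 123874 bp from Fgf14 (chromosome 14, 124801560 to 124802154), had a mature score of 1032 and no bulk peak. The next were near the start of chromosome 9 (3022474 to 3025810; 3525 nascent, 4662 mature, 6274 bulk) and 488 bp from a gene end of Lars2 (3477 nascent, 9639 mature, 48402 bulk). Peaks near Vmn2r87, Tmem196 and Gm14496 also had no bulk peak. No exclusion list was applied here. Among nascent peaks at promoter windows, Desi2 (848 nascent, 2858 mature, 14789 bulk), Cdc73, a subunit of the PAF1 elongation complex (790, 1370, 6869), and Fto, an RNA demethylase (775, 2441, 12948), were among the highest 10, a set added after the values were seen.

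Clusters of microRNAs typical of ES cells were among the loci with nascent peaks. Within 2 kb of 1005 RefSeq hairpins, a bulk peak was found at 538, and of these 28.8% had a nascent and 60.8% a mature peak. The miR-302 cluster (5 hairpins, chromosome 3, 127545228 to 127545807) had a nascent peak within 2 kb of all 5, with top scores within 10 kb of 245 nascent, 1107 mature and 5235 bulk. The miR-17 cluster (6 hairpins, chromosome 14) had one within 2 kb of all 6, with 207 nascent, 594 mature and 2838 bulk. The miR-290 cluster (8 hairpins, chromosome 7, 3218626 to 3220841) had one for 3 of 8, with 96 nascent, 686 mature and 2836 bulk. Let-7 hairpins, which are processed in differentiated cells, had a nascent peak at 1 of 11 and a bulk peak at 4. Of all 1005 hairpins 15.4% had a nascent peak. Among hairpins with a bulk peak, let-7 with 1 of 4 stood near the 28.8% of all. Hairpins of a cluster share their peaks, and the loci were chosen after the counts were seen. Mature sequences are shown with the seed, bases 2 to 8, in capitals; the miR-290 and miR-302 members share AAGUGCU, and the miR-17 members AAAGUGC.
miR-291a-3p: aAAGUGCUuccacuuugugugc
miR-294-3p: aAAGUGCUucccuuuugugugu
miR-295-3p: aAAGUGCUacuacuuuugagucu
miR-302b-3p: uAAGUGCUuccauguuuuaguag
miR-17-5p: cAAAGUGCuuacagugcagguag
miR-20a-5p: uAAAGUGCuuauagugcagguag

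Sites with a nascent peak at 0h were the most often still open in EpiLC at 48h, a list not used to make the 0h classes. Of all 0h bulk peaks, 61.1% had a peak in the 48h bulk list: 93.7% (17613 of 18797) of those with a nascent peak, 70.8% of those with a mature and no nascent peak and 49.0% of those in bulk alone. In the strongest decile of 0h bulk score these shares were 94.5%, 84.4% and 87.2%, and in the seventh decile 92.6%, 72.1% and 71.6%. Weighted over deciles 6 to 10 they were 92.4%, 75.5% and 77.4%. Away from gene ends, where all 3 classes lay over 1 kb from one, they were 87.2%, 72.7% and 75.5%.

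**Figure D5:**
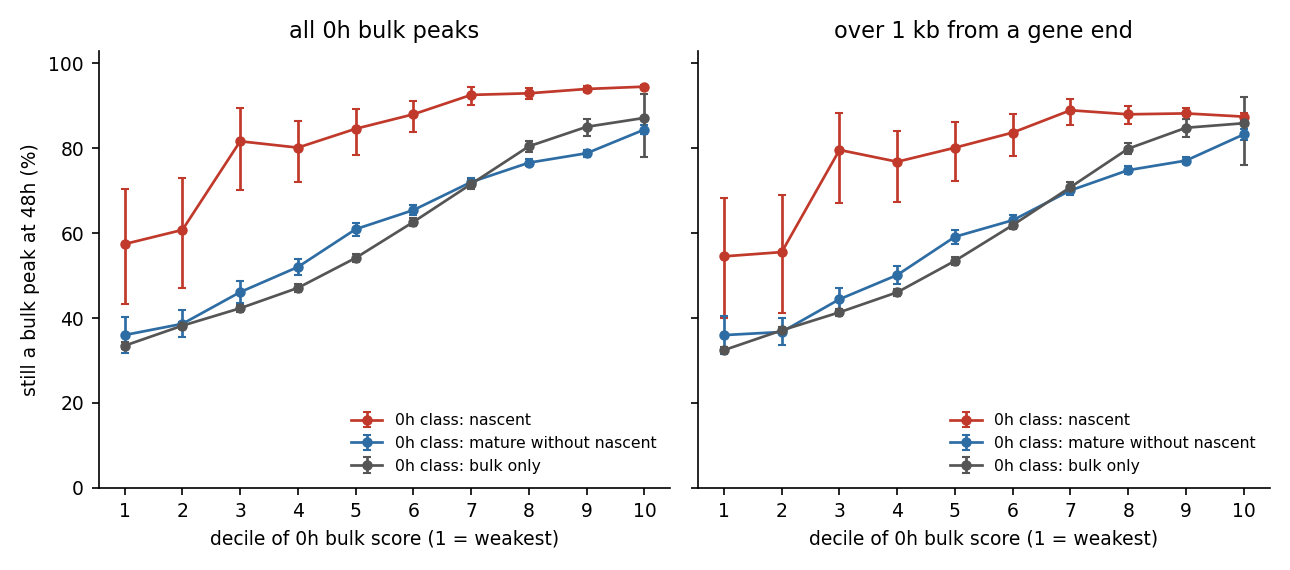
Share of ES cell 0h bulk peaks with a peak in the EpiLC 48h bulk list, in percent, by decile of 0h bulk score, for all sites (left) and sites over 1 kb from a gene end (right). Lines are the 0h classes, bars are Wilson 95% intervals, and points with fewer than 20 sites are left out; the nascent class lies above the other two at every decile for all sites, from 92.6% in the seventh to 94.5% in the strongest.

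Sites that had only a bulk peak at 0h were kept more often than sites with a mature and no nascent peak in deciles 8 to 10, where the intervals of decile 10 overlap. In the ninth decile the shares were 85.1% (83.0 to 87.0) for bulk alone and 78.8% (78.0 to 79.6) for mature without nascent, and in the eighth 80.5% and 76.6%. In deciles 1 to 7 the bulk-only share was the lower, with 54.2% for bulk alone and 61.0% for mature without nascent in decile 5. The intervals overlap in deciles 1, 2 and 7. Away from gene ends the bulk-only share was the higher in decile 2 (37.1% and 36.7%) and decile 7 (70.9% and 70.1%), with overlapping intervals. Weighted to score and width together over deciles 6 to 10, bulk-only sites stood at 67.5%, below the 75.4% of sites with a mature and no nascent peak. The order of those 2 classes thus changed with the weighting.

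Most 0h sites were still open at 9h. The 9h bulk list held 99.4% of the nascent class, 93.0% of the mature class and 66.5% of bulk-only sites, beside 78.6% of all. Weighted over deciles 6 to 10 of bulk score these were 99.0%, 95.6% and 91.5%. In MEF at 6h of reprogramming the shares were 77.6%, 38.2% and 21.4%, beside 33.4% of all. At gene ends the MEF list held 96.8% of the nascent class, and elsewhere 56.3%, against 35.3% for the mature class and 20.8% for bulk-only sites elsewhere. Weighted over deciles 6 to 10, sites elsewhere stood at 52.9%, 37.3% and 37.4%.

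Many nascent peaks recurred at the same sites. Of the 18797 sites with a nascent peak at 0h, 70.2% had a nascent peak at 9h and 74.7% in EpiLC at 48h, and 56.5% had one in MEF at 12h. Of sites with a mature and no nascent peak at 0h, 8.62% had a nascent peak at 9h and 15.6% at 48h, and of bulk-only sites 0.749% and 3.95%. Among all 0h bulk peaks the backgrounds are 11.6% at 9h and 16.1% at 48h. Weighted over deciles 6 to 10 the 3 classes stood at 55.1%, 10.3% and 1.08% at 9h, 69.4%, 17.4% and 6.04% at 48h, and 40.9%, 8.28% and 3.11% in MEF at 12h. At gene ends 87.3% of the nascent class had a nascent peak at 9h and 95.8% at 48h, against 51.3% and 51.4% elsewhere. In MEF at 12h, where 10.1% of all 0h bulk peaks had a nascent peak, the mature and bulk-only classes stood at 7.15% and 1.78%.

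Mature lists gave the same order of classes. A 9h mature peak was present at 97.6% of the nascent class, 80.4% of the mature class and 31.1% of bulk-only sites, beside 54.2% of all. In EpiLC at 48h these were 89.1%, 53.4% and 21.4%, beside 39.4%, and in MEF at 12h 70.4%, 23.6% and 8.63%, beside 20.7%. Weighted over deciles 6 to 10 the shares were 96.0%, 84.1% and 59.5% at 9h, 85.2%, 58.5% and 47.1% at 48h, and 57.3%, 25.9% and 16.7% in MEF at 12h.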

How the data were processed

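The files analysed are peak lists on mm10. Per the submitters' processing notes, the authors used Bowtie2 2.2.5, MACS2 2.2.0, cutadapt 2.2.0, bedtools 2.26.0, bcl2fastq 2.19.1 and SAMtools 1.4.1; their parameters, any shift for the transposase cut and the pooling of the ES cell samples are not given in the sources used here. Each deposited peak has the authors' peak caller score, which orders peaks within its list and has a minimum of 30. The MEF lists were called on merged replicates per the peak names, and the MEF bulk lists were assigned by name and elimination.

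Peaks were shared at 1 bp or more. Shares weighted to score are direct standardisations to the score deciles of all bulk peaks, computed with pandas 2.3.3 and NumPy 2.4.6 in Python 3.11.15 and tested on simulated peaks. Classes at later times were weighted over deciles 6 to 10. Gene models (21887 protein-coding genes) carry no strand. The rule for named sites took, outside chromosomes M and Y, the 10 highest nascent scores, the 10 strongest bulk peaks with and without a nascent peak away from gene ends, without one at gene ends, and with neither fraction, the 10 weakest gene-end bulk peaks with one, and the 10 largest rank shifts each way. It also took up to 6 genes per list; a part of these is printed, and some genes outside it were named after their values were seen. The members and lists were chosen with earlier results of these data known, and the contrast of CpG-rich and CpG-poor windows and the microRNA counts were added after seeing the data.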

Additional observations from a re-analysis of the deposited data

How the results depend on the processing

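The share of bulk peaks with a nascent peak was 11.8% with scores of 50 or more in all lists and 9.12% with 100 or more, and stayed within its interval under the other alternatives run. The share with a mature peak was 42.0% when the shorter peak had to be covered by 50 percent, 41.2% when its centre had to lie in the bulk peak, 41.9% at a score of 50, 37.9% at 100 and 12.7% with the list cut to the nascent length. Gene-end shares at 500 bp were 46.8% nascent, 18.97% mature and 10.5% bulk, at 2 kb 55.0%, 25.8% and 16.9%, and at the nascent length 41.3% for mature and for bulk. The gene-end difference in nascent share was 13.2 points with 50 score bins, 43.1 unweighted and 8.32 weighted to score and width. The mature difference was 5.13 points weighted to width, 35.4 unweighted, 2.63 weighted to score and width and 2.99 at the nascent length. The CpG difference unweighted was 64.5 points nascent, 36.5 mature and 45.1 for mature at the nascent length, the last being 7.77 weighted to score. The width difference over all bulk peaks was 46.2 points nascent and 84.6 mature. Genes with a nascent peak were 74.5% over loci and 72.0% over promoter windows. The 48h difference to the mature class was 18.8 points as counted, 14.7 with width, 21.6 over all deciles and 14.5 away from gene ends, and that to bulk-only sites 24.0, 22.7, 22.4 and 11.7. No direction reversed. Weights of score and width together, the promoter windows, all deciles, sites away from gene ends, the gene-end difference at the nascent length, and the contrast of CpG-rich and CpG-poor windows with its alternatives were chosen after seeing the data. Over loci, 15 of 29 gene lists stayed within 1.5 times their count and 26 were higher. No paired analysis was possible because each group has 1 deposited list, and no replicate could be left out. Depth is unknown, and list length limits every share.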

Other observations

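On the X chromosome, nascent peaks lay on 12.2% of 3045 bulk peaks and mature peaks on 47.8%, against 12.2% and 42.2% on the autosomes. Weighted to bulk score, the X stood at 12.9% and 47.0%. Across the 19 autosomes the weighted nascent share ran from 11.4% on chromosome 18 to 13.2% on chromosome 11, and the weighted mature share from 40.4% on chromosome 13 to 43.8% on chromosome 3, below the X. The Y chromosome held 44 bulk peaks, of which 20 had a nascent peak. Peaks in crowded neighbourhoods had nascent peaks slightly more often: weighted to score, the nascent share was 13.4% in the quintile with most bulk peaks within 250 kb (median 86 neighbours) and 10.3% in the quintile with fewest (median 16). Over sites away from gene ends alone these were 10.0% and 7.48%, and the mature shares over all sites 46.5% and 43.2%. The mature share did not rise steadily: the quintiles in between, from sparse to crowded, stood at 38.8%, 40.8% and 42.5%.

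Nascent peaks off the bulk list numbered 269 (1.39% of the nascent list), and mature peaks outside it 1327 (1.99%). Most were weak, although 4 of the 10 highest nascent scores, up to 6605, were among them. The median nascent score was 52, against 129 for nascent peaks on a bulk peak, and the median mature score of the 1327 was 69, against 199. Of the 269, 33 lay on a mature peak and 10 at a gene end. The nascent score stood furthest behind the bulk score, by rank, at sites near Plcg2 (nascent 47, mature 529, bulk 6856) and Pon2 (nascent 52, mature 893, bulk 6993), and furthest ahead at sites such as one 21357 bp from Gm51877 (nascent 470, mature 229, bulk 434).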
